A study of Homo sapiens with 4 samples.

Results

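Kinesins are motor proteins that use ATP to move along or to take apart microtubules. One set works in dividing cells: these motors push spindle poles apart, align chromosomes and build the midzone and midbody on which cytokinesis depends, and their transcripts are made mainly in the G2 and M phases of the cell cycle. Another set carries vesicles, mitochondria, mRNA and other cargo through the cytoplasm of interphase cells, often with light chains or adaptors as partners. Inhibitors of the mitotic motors, KIF11 in particular, arrest tumour cells in mitosis.

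The kinesin motor family was taken as every protein-coding gene with a KIF or KIFC symbol and at least 10 counts in at least 2 of the 4 libraries. This gave 36 of 42 kinesin genes among the 20263 genes listed, and all 36 were among the 14062 genes tested. By known role 12 were mitotic kinesins, 14 transport kinesins and 10 were in neither class. The 6 genes below the limit were KIF1A, KIF2B, KIF4B, KIF6, KIF19 and KIF25. KIF2B, a relative of KIF2C, had 0 counts in every library, which with 6 counts (3 fragments, both mates counted) as the floor allows up to 0.172 to 0.202 CPM per library. The nearest gene below the limit was KIF19, with counts of 0, 6, 7 and 6, and the lowest above it were KIF7, with 43, 52, 37 and 44, and KIF26B, with 37, 35, 83 and 25 (DMSO replicates 1 and 2, then HJ-23 replicates 1 and 2).

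The RNA came from HCT116, a human line established from a colorectal carcinoma and labelled wild type, after 24 hours with 0.1% DMSO, the solvent control, or with 30 µM HJ-23, which the submitters describe as derived from piperine; whether the HJ-23 wells held DMSO is not stated. Each group had 2 libraries with total counts from 29769568 to 34831207, and the sources do not say whether the 2 came from separate cultures, so p-values rest on how far these libraries spread, which may be technical alone. The titles name HJ-23 and the treatment field of the same samples HJ-25; the titles are followed here. Epithelial markers summed to 4049 to 5513 CPM per library (CPM being counts scaled to library size), with VIL1 alone of 7 below a mean of 1 CPM. Of 5 immune markers 4 were below 1 CPM, with PTPRC and CD3E at 0 in every library, and CD68, a lysosomal protein, was at 34.83 to 51.00 CPM. Of 4 fibroblast markers COL1A2, DCN and LUM were at 0 in every library and COL1A1, a collagen chain, was at 55.06 to 63.28 CPM. The 3 endothelial markers had means below 1 CPM.

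The single comparison asked which kinesin transcripts differed between HJ-23 and DMSO, and whether the mitotic and transport motors differed alike. Most mitotic kinesins had lower means in HJ-23, led by KIF15, KIF23, KIF20A and KIF4A, while the transport kinesins were centred near 0 and held the 2 highest fold changes, those of KIF1C and KIFC3. No kinesin passed edgeR's quasi-likelihood test over all genes: 0 of 36 had an adjusted p below 0.05, against a background of 0.0853% of all genes tested. DESeq2 also called 0, against a background of 2.31%. At an unadjusted edgeR p below 0.05 there were 3 higher (KIF1C, KIFC3 and KIF21B) and 3 lower (KIF20A, KIF23 and KIF12), against 6.77% and 5.25% of all genes (12.0% in both directions together). With DESeq2 6 kinesins had such a p, against 9.49%. The libraries of the groups did not overlap for 4 kinesins that were higher and 9 that were lower in HJ-23, against 24.8% and 21.2% of all genes.

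**Figure D1:**
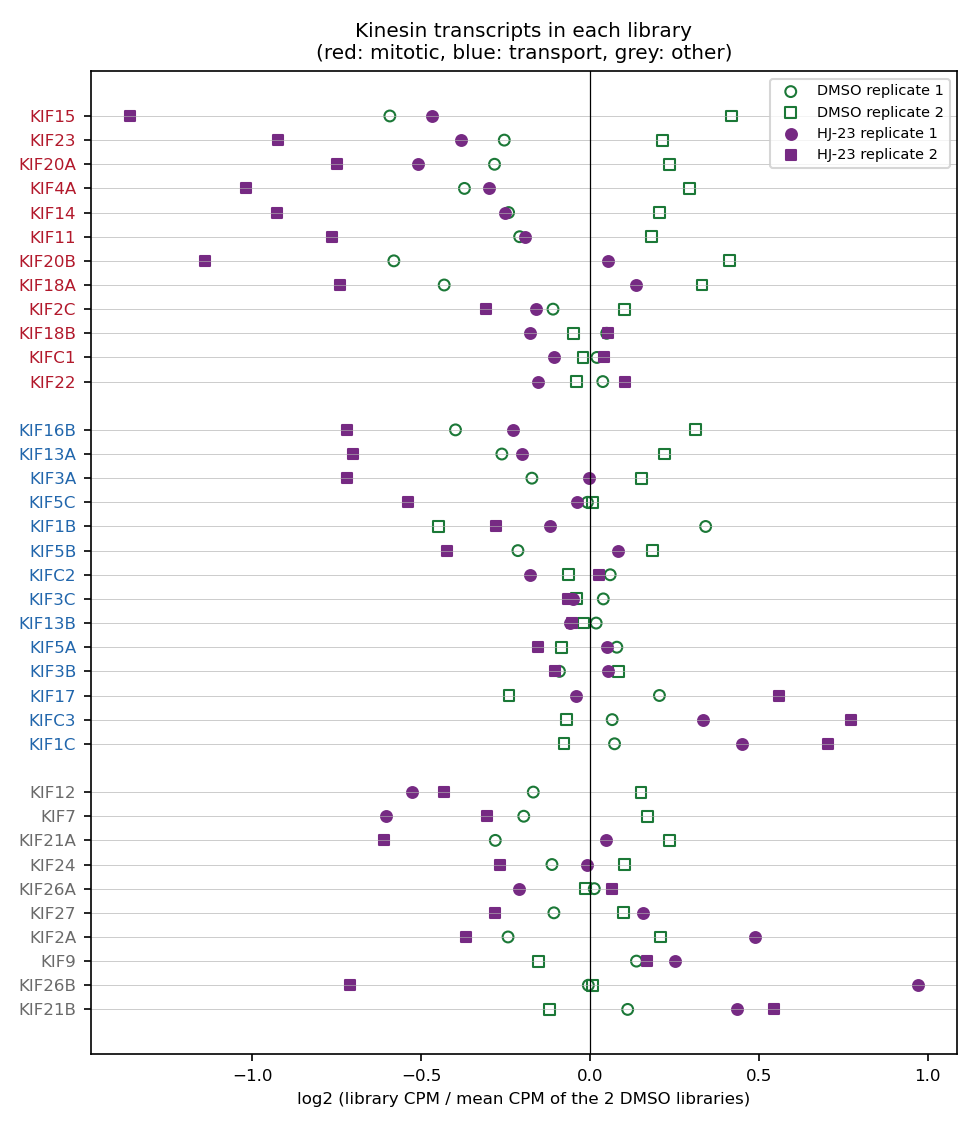
Level of each of the 36 kinesin transcripts in each library, as the log2 ratio of its CPM to the mean CPM of the 2 DMSO libraries (x axis); genes are rows, ordered within each class by fold change, with open green symbols for DMSO and filled purple symbols for HJ-23, and gene names in red for mitotic, blue for transport and grey for other kinesins. For most mitotic kinesins DMSO replicate 2 was the highest and HJ-23 replicate 2 the lowest library, with the replicate 1 libraries close together.

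Promoters are shown first for mitotic kinesins, since genes of G2 and M are known to share a promoter element, the cell cycle genes homology region (CHR, TTTGAA or TTCGAA), which the DREAM and MuvB complexes bind, often with CCAAT boxes, the site of NF-Y, upstream of it. Windows from 250 bases before to 50 bases after the start, from RefSeq on GRCh38.p14, were found for all 12 mitotic, 10 of 14 transport and 7 of 10 other kinesins. The stretches below run from 80 bases before to 20 bases after the start, 5′ to 3′ on the gene's strand, with CHR and CCAAT letters on either strand in capitals (TTCAAA and ATTGG are the reverse complements of TTTGAA and CCAAT, and TTCGAA is its own). KIF15, KIF23, KIF20A, KIF4A and KIF11 are mitotic kinesins with lower means in HJ-23, KIF18B, KIF22 and KIFC1 are mitotic kinesins with fold changes near 0, and KIF1C is a transport kinesin. Their positions are chr3:44761714-44761813 (+) for KIF15, chr15:69414269-69414368 (+) for KIF23, chr5:138179032-138179131 (+) for KIF20A, chrX:70290024-70290123 (+) for KIF4A and chr10:92593050-92593149 (+) for KIF11. They are chr17:44947754-44947853 (-) for KIF18B, chr16:29790671-29790770 (+) for the first of the 2 KIF22 starts, chr6:33391743-33391842 (+) for KIFC1 and chr17:4997870-4997969 (+) for KIF1C.
KIF15: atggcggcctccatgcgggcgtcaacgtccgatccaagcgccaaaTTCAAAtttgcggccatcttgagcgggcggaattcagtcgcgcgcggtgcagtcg
KIF23: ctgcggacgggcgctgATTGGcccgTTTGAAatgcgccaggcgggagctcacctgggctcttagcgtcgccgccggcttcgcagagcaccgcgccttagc
KIF20A: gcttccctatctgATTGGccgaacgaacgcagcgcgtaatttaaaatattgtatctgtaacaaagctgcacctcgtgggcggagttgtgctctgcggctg
KIF4A: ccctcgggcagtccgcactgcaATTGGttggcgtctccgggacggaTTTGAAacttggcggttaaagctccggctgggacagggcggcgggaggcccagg
KIF11: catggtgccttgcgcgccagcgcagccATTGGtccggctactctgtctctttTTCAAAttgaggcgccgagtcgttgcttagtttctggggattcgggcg
KIF18B: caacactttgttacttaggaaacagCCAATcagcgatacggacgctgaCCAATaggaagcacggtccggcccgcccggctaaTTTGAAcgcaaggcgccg
KIF22: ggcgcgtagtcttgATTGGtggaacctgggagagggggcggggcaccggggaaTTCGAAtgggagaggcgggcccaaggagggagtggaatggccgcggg
KIFC1: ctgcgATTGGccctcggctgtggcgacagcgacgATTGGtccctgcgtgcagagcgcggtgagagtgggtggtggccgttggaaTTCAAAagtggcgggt
KIF1C: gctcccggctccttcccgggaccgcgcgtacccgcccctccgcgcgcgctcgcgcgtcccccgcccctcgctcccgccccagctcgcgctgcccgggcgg

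The CHR letters were in the window of 10 of the 12 mitotic kinesins, of 1 of 10 transport kinesins (KIF5B, at position -140, where -1 is the base before the start) and of 1 of 7 others (KIF24, at position 2). Over all 27305 genes with a window of the same length, 19.5% held them. CCAAT letters were in the windows of 10 mitotic, 4 transport and 2 other kinesins, against 39.7% of all genes, and both were in 9, 1 and 1, against 7.85%. The 2 mitotic kinesins without CHR letters in the window were KIF20A, which had 2 CCAAT matches at -94 and -67, and KIF2C, which had neither. In 6 of the 9 mitotic promoters with both, the closest pair started 23 to 39 bases apart, with CCAAT upstream: 23 in KIF14, 24 in KIF4A, 25 in KIF11, 34 in KIF18B, 35 in KIF18A and 39 in KIF22. The spacing was 9 in KIF23, 50 in KIFC1 and 122 in KIF20B. The 10 mitotic kinesins with CHR letters covered the whole range of fold changes in the class, from -0.85 for KIF15 to -0.02 for KIF22, and the 2 without were at -0.62 (KIF20A) and -0.23 (KIF2C). These are matches of letters, and binding was not measured.

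**Figure D2:**
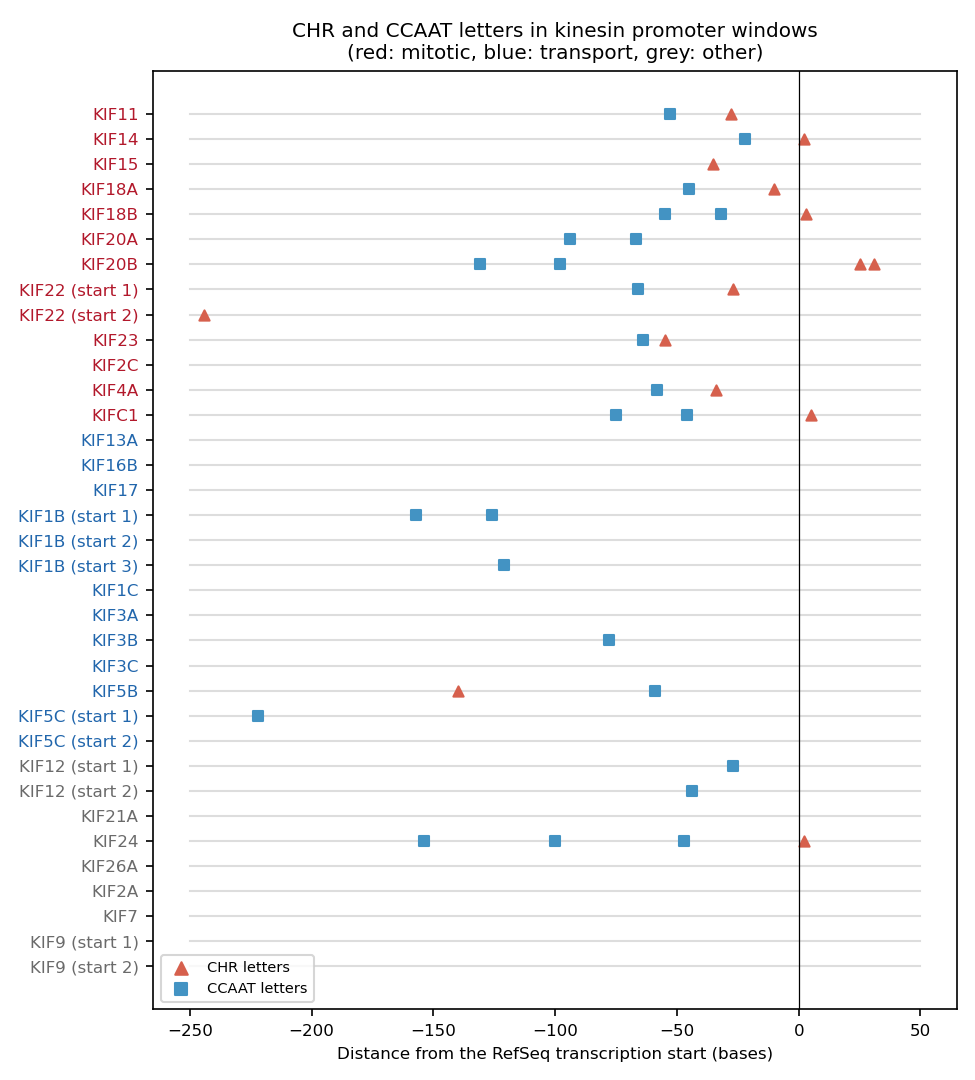
Positions of CHR letters (triangles) and CCAAT letters (squares) in the RefSeq promoter windows of 29 kinesin genes, as the distance in bases from the transcription start (x axis); each line is 1 start. CHR letters lie mostly near the start of the mitotic kinesins and are seen in 1 transport kinesin, KIF5B, and in 1 of the others, KIF24.

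Among the motors of the midzone and cytokinesis, KIF20A (ENSG00000112984; MKLP2, which brings the chromosomal passenger complex to the midzone) was at 83.68 and 119.9 CPM in DMSO replicates 1 and 2 and at 71.56 and 60.58 CPM in HJ-23 replicates 1 and 2. Both HJ-23 libraries were below both DMSO libraries, and edgeR gave a log2 fold change of -0.62 with SE 0.21 and adjusted p = 0.362. KIF23 (ENSG00000137807; MKLP1, the motor of the centralspindlin complex) was at 54.10 and 74.92 CPM in DMSO and 49.47 and 33.97 CPM in HJ-23, again without overlap, with an edgeR log2 fold change of -0.63 (SE 0.25 and adjusted p = 0.408). KIF4A (ENSG00000090889), a chromokinesin that limits the length of midzone microtubules, was at 38.94 and 61.83 CPM in DMSO and 40.93 and 24.87 CPM in HJ-23. Here HJ-23 replicate 1 lay above DMSO replicate 1, so the groups overlapped (edgeR log2 fold change -0.61 with SE 0.32 and adjusted p = 0.481). KIF4B, the intronless copy of KIF4A, had 0 to 4 counts per library. KIF14 (ENSG00000118193), which acts with the kinase CIT in cytokinesis, was at 31.83 and 43.41 CPM in DMSO and 31.59 and 19.79 CPM in HJ-23. Its HJ-23 replicate 1 was just below DMSO replicate 1 (edgeR log2 fold change -0.55 with SE 0.28 and adjusted p = 0.475). KIF20B, a relative of KIF20A that acts late in cytokinesis, overlapped widely, with 23.37 and 46.55 CPM in DMSO and 36.27 and 15.87 CPM in HJ-23.

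Of the motors that act on the spacing of spindle poles or centrosomes, KIF15 (ENSG00000163808), which can stand in for KIF11, had the lowest fold change of the family. It was at 11.49 and 23.17 CPM in DMSO and at 12.52 and 6.74 CPM in HJ-23, an edgeR log2 fold change of -0.85 (SE 0.43 and adjusted p = 0.476). DMSO replicate 2 was the high library and HJ-23 replicate 2 the low one, and the replicate 1 libraries differed little. Without DMSO replicate 1 KIF15 passed over all genes (log2 fold change -1.27, adjusted p = 0.0158, edgeR; 1 of 36 kinesins, against 1.89% of all genes in that fit), and its fold change over the 4 fits with 1 library left out ran from -1.38 to -0.28. KIF11 (ENSG00000138160; Eg5, the tetrameric motor that slides antiparallel spindle microtubules) was at 59.09 and 77.45 CPM in DMSO and 59.71 and 40.16 CPM in HJ-23. The KIF11 groups overlapped, as those of KIF15 did (edgeR log2 fold change -0.45 with SE 0.24 and adjusted p = 0.492). KIFC1 (ENSG00000237649; HSET, a minus-end motor that clusters extra centrosomes) was level across libraries, at 148.4 and 144.2 CPM in DMSO and 135.9 and 150.7 CPM in HJ-23 (edgeR log2 fold change -0.03 with SE 0.14 and adjusted p = 0.945).

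Other mitotic motors act on chromosomes and on microtubule ends. KIF2C (ENSG00000142945; MCAK, the centromeric depolymerase) was at 133.2 and 154.3 CPM in DMSO and 128.6 and 116.0 CPM in HJ-23. Its groups did not overlap, by a small margin (edgeR log2 fold change -0.23 with SE 0.15 and adjusted p = 0.550). KIF22 (ENSG00000079616; Kid, a DNA-binding motor that pushes chromosome arms) was at 119.2 and 113.0 CPM in DMSO and 104.3 and 124.8 CPM in HJ-23, with an edgeR log2 fold change of -0.02 (SE 0.15 and adjusted p = 0.968). KIF18B, a partner of KIF2C at microtubule plus ends, was at 103.7 and 96.79 CPM in DMSO and 88.56 and 103.9 CPM in HJ-23. KIF18A, which damps chromosome movement at metaphase, was at 29.77 and 50.55 CPM in DMSO and 44.14 and 24.03 CPM in HJ-23. The HJ-23 libraries of KIF22 and KIF18B lay on either side of the DMSO values, and those of KIF18A differed from each other more than the group means did.

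Among the transport kinesins the highest fold change was that of KIF1C (ENSG00000129250), a kinesin-3 motor of vesicles and mRNA. KIF1C was at 201.1 and 181.3 CPM in DMSO and at 261.2 and 312.0 CPM in HJ-23. Its HJ-23 libraries were both above the DMSO ones, and edgeR gave a log2 fold change of 0.58 with SE 0.15, unadjusted p = 0.00880 and adjusted p = 0.297, the smallest p in the family. KIFC3 (ENSG00000140859), a minus-end motor linked to adherens junctions and the Golgi, was at 76.92 and 70.06 CPM in DMSO and 92.62 and 125.6 CPM in HJ-23. It also did not overlap (edgeR log2 fold change 0.57 with SE 0.19 and adjusted p = 0.355). KIF16B (ENSG00000089177), which moves early endosomes, had the lowest fold change in the class, with 14.81 and 24.23 CPM in DMSO and 16.67 and 11.86 CPM in HJ-23. Its HJ-23 replicate 1 lay between the DMSO libraries (edgeR log2 fold change -0.45 with SE 0.30 and adjusted p = 0.559).

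The heavy chain of conventional kinesin KIF5B (ENSG00000170759), the ubiquitous carrier of mitochondria and lysosomes, was at 193.8 and 255.6 CPM in DMSO and 237.8 and 167.5 CPM in HJ-23 (edgeR log2 fold change -0.15 with SE 0.22 and adjusted p = 0.812). KIF5A and KIF5C, its mainly neuronal paralogs, had log2 fold changes of -0.05 and -0.27. KIFC2 (ENSG00000167702), a minus-end motor described mainly in neurons, was at 169.6 and 155.7 CPM in DMSO and 143.8 and 165.6 CPM in HJ-23 (edgeR log2 fold change -0.07 with SE 0.15 and adjusted p = 0.862). The subunits of the kinesin-2 motors, which carry cargo along cilia and in the cytoplasm, were KIF3A, KIF3B and KIF3C, with log2 fold changes of -0.32, -0.02 and -0.06. Of the other members, KIF13A was at -0.43, KIF1B at -0.20, KIF13B at -0.06 and KIF17 at 0.29. None of the 14 passed. The groups did not overlap for 2 that were higher and 3 that were lower in HJ-23, against 24.8% and 21.2% of all genes. The other 9 overlapped.

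Outside both classes, KIF21B (ENSG00000116852), which restrains microtubule growth, was at 43.22 and 36.78 CPM in DMSO and 54.15 and 58.38 CPM in HJ-23, without overlap (edgeR log2 fold change 0.49 with SE 0.16 and adjusted p = 0.359). KIF12 (ENSG00000136883), an epithelial kinesin of kidney and liver, was at 14.74 and 18.39 CPM in DMSO and 11.48 and 12.26 CPM in HJ-23, also without overlap (edgeR log2 fold change -0.48 with SE 0.19 and adjusted p = 0.406). KIF7 (ENSG00000166813), the Hedgehog regulator at the tip of the primary cilium, was low, at 1.38 and 1.78 CPM in DMSO and 1.04 and 1.28 CPM in HJ-23 (edgeR log2 fold change -0.44 with SE 0.33 and adjusted p = 0.604). KIF2A, a depolymerase that serves both the spindle and neurites, had a log2 fold change of 0.12, with HJ-23 libraries of 38.19 and 21.07 CPM on either side of the DMSO ones. The remaining 6 ranged from -0.24 (KIF21A) to 0.36 (KIF26B). KIF26B was the least reproducible, at 2.34 and 0.73 CPM in the HJ-23 libraries.

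**Figure D3:**
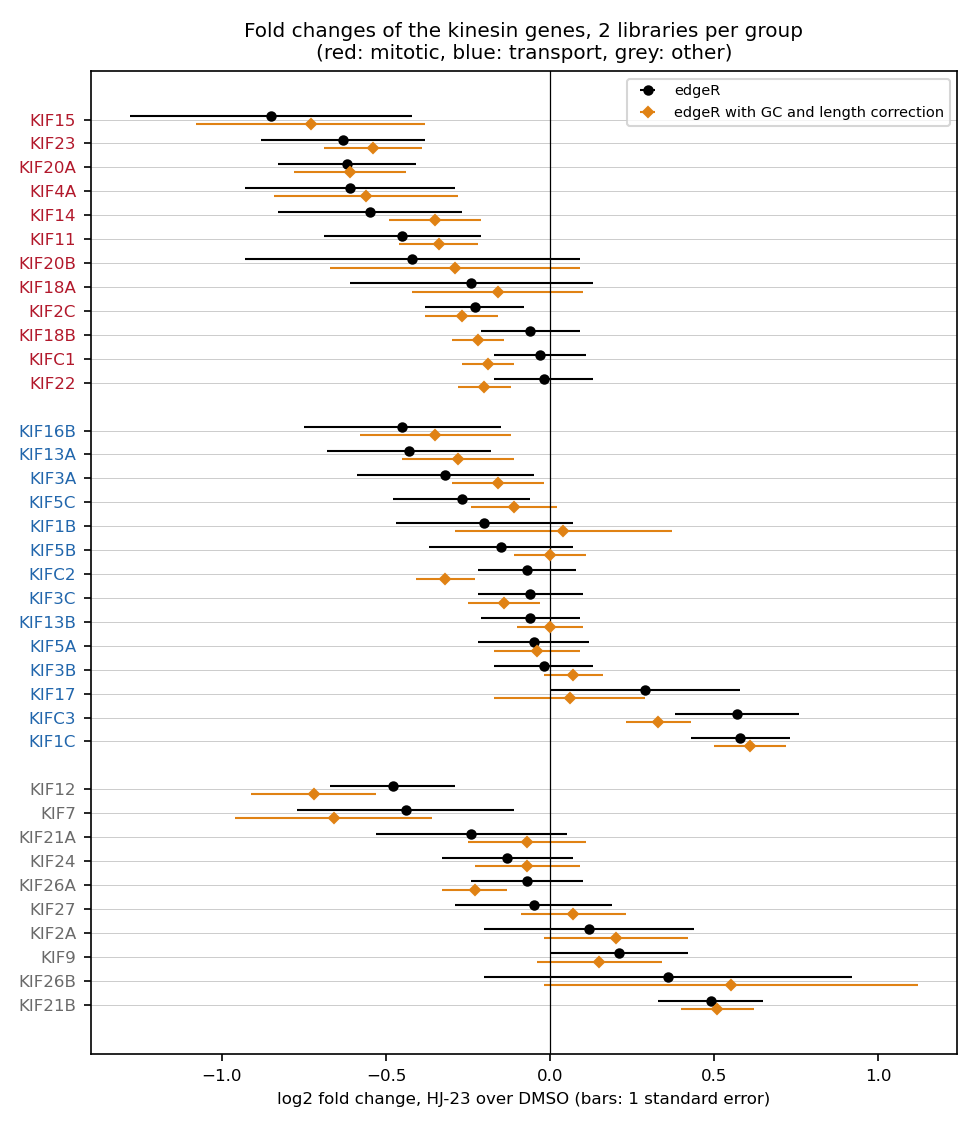
Log2 fold changes of the 36 kinesin genes, HJ-23 over DMSO (x axis), with bars of 1 standard error, from edgeR (black circles) and from edgeR with a correction for transcript GC content and length (orange diamonds). All 12 mitotic kinesins are below 0 in both fits, and none of the 36 genes passed the adjusted threshold in either.

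Side by side, the log2 fold changes of all 12 mitotic kinesins were negative and had a median of -0.44, and those of 11 of 14 transport kinesins were, around a class median of -0.07. Over all genes tested 49.0% were negative and the median was 0.01. The difference of the medians of both classes was -0.37 on the log2 scale, with a replicate SD of 0.28. Replicate libraries differed with an SD of 0.35 for the class median of mitotic kinesins and 0.10 for that of transport kinesins, so the mitotic median lay little further from 0 than its replicate spread. The 12 fold changes come from the same 4 libraries, so their signs are not 12 separate observations. Between replicates 9 of the 12 were higher in DMSO replicate 2 and lower in HJ-23 replicate 2, while KIF18B, KIF22 and KIFC1 went the other way in both groups. MKI67, the proliferation marker Ki-67, was at 173.7 and 253.6 CPM in DMSO and 58.44 and 50.50 CPM in HJ-23, with both HJ-23 libraries far below DMSO. Its log2 fold change was -1.97 in edgeR (SE 0.22, adjusted p = 0.0735) and -1.67 after GC and length correction (edgeR adjusted p = 0.0405), and with DESeq2 it was -1.98 (adjusted p = 1.68e-13). Its part in the mitotic pattern was not tested. In bulk RNA, fewer cells in G2 and M and less of each transcript per cell cannot be told apart. Summed over the class, mitotic kinesins were at 836.8 and 1006.0 CPM in DMSO and 803.5 and 721.5 CPM in HJ-23, and transport kinesins at 1051.2 and 1063.0 CPM and 1127.2 and 1106.5 CPM. The mitotic sum was thus lower and the transport sum higher in both HJ-23 libraries. Without KIF1C the transport sum was 850.1 and 881.7 CPM in DMSO and 866.0 and 794.5 CPM in HJ-23, so the groups overlapped. KIF1C was the only member left out in this way, so the part of other members in the higher sum was not tested. The mitotic sum of HJ-23 replicate 1 was close to that of DMSO replicate 1. Between those 2 libraries the median mitotic log2 ratio was -0.03, and between the replicate 2 libraries it was -1.03. Leaving out DMSO replicate 2 moved the mitotic median to -0.21 and the difference between classes to -0.10, and leaving out HJ-23 replicate 2 gave -0.21 and -0.15. With DMSO replicate 1 left out they were -0.70 and -0.67, and with HJ-23 replicate 1 left out -0.78 and -0.63.

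The libraries also differed along transcript GC content, and the mitotic kinesins lie toward its low end, with a median of 44.3% against 49.5% for transport kinesins. The log2 ratio of DMSO replicate 2 to 1 had a Spearman correlation of -0.67 with GC content over the 36 kinesins, and that of HJ-23 replicate 2 to 1 one of 0.87. These genes share the same 4 libraries, and over 14047 genes the values were -0.35 and 0.63. All 12 kinesins below 45% GC, of every class, were higher in DMSO replicate 2 and lower in HJ-23 replicate 2 than in the other library of their group. KIF5B (39.1% GC) had log2 ratios of 0.40 and -0.51 and KIF11 (38.3% GC) of 0.39 and -0.57. The 3 mitotic kinesins above 55% GC, KIF18B, KIF22 and KIFC1, had fold changes of -0.06 to -0.02, with a median of -0.03, against 0.11 for the 4 transport kinesins and 0.17 for all 4820 genes of that band, of which 28.2% were negative. The 6 below 45% had a median of -0.50, against -0.27 for the 3 transport kinesins and -0.13 for all 4765 genes below 45%. In the middle band, from 45% to 55%, the 3 mitotic kinesins KIF20A, KIF4A and KIF2C had a median of -0.61, against -0.06 for the 7 transport kinesins and -0.01 for all 4462 genes.

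**Figure D4:**
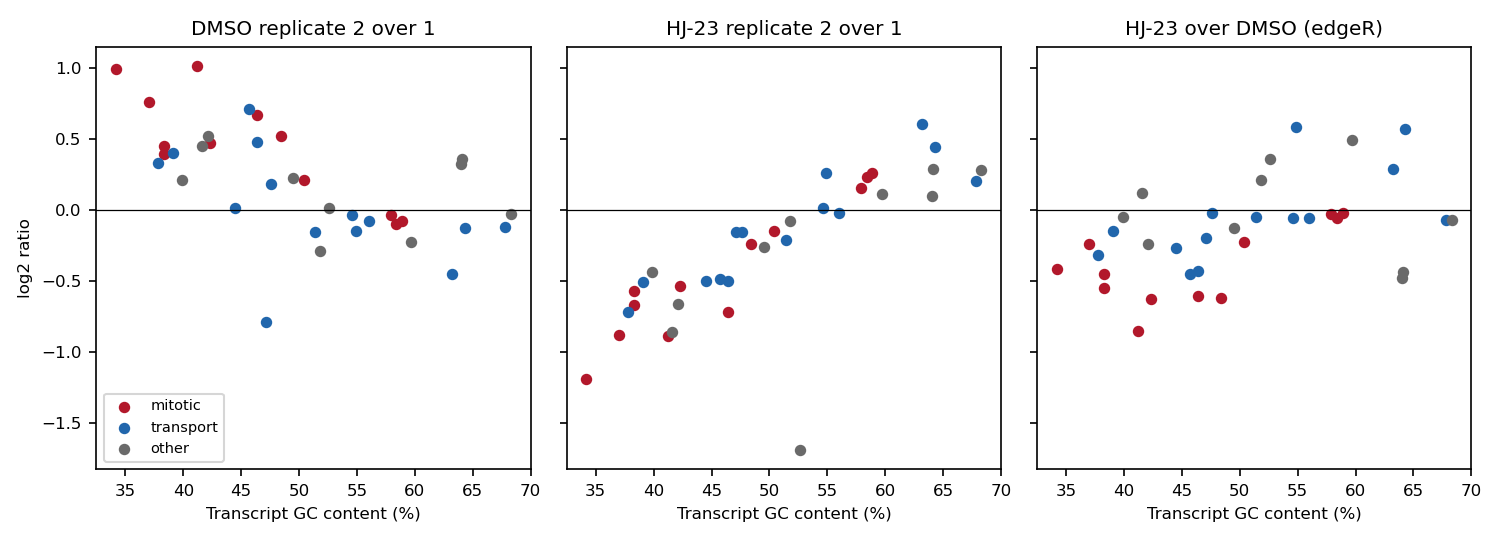
Log2 ratios of the 36 kinesins (y axis) against the GC content of their longest coding transcript in percent (x axis), for DMSO replicate 2 over 1, HJ-23 replicate 2 over 1 and HJ-23 over DMSO; each point is a gene, coloured by class. At higher GC content the ratio was lower within DMSO and higher within HJ-23 for mitotic and transport kinesins alike, with Spearman correlations of -0.67 and 0.87 over all 36.

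With library trends along GC content and length removed, 0 of 36 kinesins passed (adjusted p, edgeR; background 0.242%), and 3 higher and 6 lower had an unadjusted p below 0.05, against 9.28% and 8.48% of all genes (17.8% together). The trends were fitted in each library without regard to group, so any difference with HJ-23 that follows GC content or length is removed with them. The 12 mitotic kinesins remained negative, from -0.73 to -0.16 with a median of -0.31, while 7 transport kinesins were positive and 7 negative, with a median of -0.02. Over the family the corrected libraries then did not overlap for 5 kinesins that were higher and 14 that were lower, against 26.0% and 25.3% of all genes. The lower ones included 9 of 12 mitotic kinesins, against 4 of 12 before. For KIF15, 1 of the 9, the margin was below the second decimal, with 11.67 corrected CPM in both DMSO replicate 1 and HJ-23 replicate 1. KIF11 was at 59.89 and 69.79 corrected CPM in DMSO and 54.29 and 48.37 in HJ-23 (edgeR log2 fold change -0.34 with SE 0.12 and adjusted p = 0.256). KIFC1 moved from -0.03 to -0.19 and KIF22 from -0.02 to -0.20. Among transport kinesins KIF1C was at 0.61 (SE 0.11, edgeR adjusted p = 0.121), KIFC3 went from 0.57 to 0.33 and KIFC2 from -0.07 to -0.32. The mitotic sum became 857.9 and 997.0 corrected CPM in DMSO and 785.4 and 704.9 in HJ-23.

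Levels were compared between genes per kilobase of the longest coding transcript. In DMSO the highest were KIFC1, with 54.8 and 53.3 CPM per kb in replicates 1 and 2, KIF2C with 45.1 and 52.2, KIF22 with 47.6 and 45.1, and KIFC2 with 47.6 and 43.7. KIF2C, KIF22 and KIFC2 did not differ beyond their spread. KIF5B followed with 33.0 and 43.5 CPM per kb, then KIF20A with 26.1 and 37.5. At the low end were KIF7, with 0.304 and 0.391 CPM per kb, and KIF26B, with 0.0983 and 0.0988. In HJ-23 KIF1C reached 33.0 and 39.4 CPM per kb from 25.4 and 22.9 in DMSO, and KIF20A was at 22.4 and 18.9.

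Exons of some kinesin genes overlap those of another gene, and since the strand setting of the counting is not given, reads there cannot be assigned with certainty. The overlap took 17.9% of exon bases for KIF9, 17.8% for KIFC2, 13.1% for KIF27, 13.0% for KIF22, 12.7% for KIFC1 and 11.8% for KIF7 in GENCODE 29, and 5.05% for KIF20A.

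The partners of both classes were described from 4 lists. Of 22 spindle and midzone partners, 18 had negative fold changes, with a median of -0.44, the same as the mitotic kinesins. None passed with edgeR, 2 higher and 6 lower had an unadjusted p below 0.05 (6.77% and 5.25% of all genes), and 4 passed with DESeq2 (2.31% of all genes), all lower: CKAP5, a microtubule polymerase, SPAG5, a spindle protein, ANLN, the cytokinetic scaffold anillin, and KPNA2, an importin. Their DESeq2 log2 fold changes ran from -1.36 for CKAP5 (adjusted p = 0.00562) to -0.82 for KPNA2 (adjusted p = 0.00226). The HJ-23 libraries of these 4, picked by their calls, lay below both DMSO libraries. Over the list of 22, the groups did not overlap for 2 partners that were higher and 10 that were lower in HJ-23. The shares of all genes were 24.8% and 21.2%. PRC1, the midzone bundler that binds KIF4A, was at 66.56 and 94.06 CPM in DMSO and 52.26 and 41.87 CPM in HJ-23 (edgeR log2 fold change -0.77 with SE 0.22 and adjusted p = 0.310). CENPE, a mitotic kinesin outside the symbol rule that holds chromosomes to spindle fibres, was at 30.45 and 67.88 CPM in DMSO and 50.35 and 16.88 CPM in HJ-23, so its groups overlapped widely. TPX2, a spindle assembly factor, and AURKB, the kinase of the passenger complex, had log2 fold changes of -0.37 and -0.35. PLK1, which phosphorylates KIF20A and PRC1, was higher by 0.50 (SE 0.14, adjusted p = 0.310, edgeR).

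The 20 partners and adaptors of transport kinesins had a median of 0.00, 10 of them negative, and none passed with edgeR or DESeq2. KLC1, a kinesin light chain, was at 150.5 and 137.5 CPM in DMSO and 140.0 and 153.9 CPM in HJ-23, and KIFAP3, the third subunit of kinesin-2, had a log2 fold change of -0.33. Dynein and dynactin, the motor of the opposite direction, had a median of 0.01 over 22 genes, with 0 passing with edgeR (1 higher and 1 lower at an unadjusted p below 0.05, against 6.77% and 5.25% of all genes) and 1 with DESeq2 (2.31% of all genes), the heavy chain DYNC1H1. DYNC1H1 was at 445.6 and 509.4 CPM in DMSO and 296.1 and 320.8 CPM in HJ-23 (edgeR log2 fold change -0.63 with SE 0.14 and adjusted p = 0.243), and -0.28 after the GC and length correction. Of 18 regulators of mitotic genes, 11 were positive, with a median of 0.16, and 0 passed with edgeR (3 higher and 2 lower at an unadjusted p below 0.05, against 6.77% and 5.25% of all genes). FOXM1, an activator of late cell cycle genes, was at 28.00 and 28.27 CPM in DMSO and 33.45 and 35.80 CPM in HJ-23. CDKN1A, the inhibitor p21, through which p53 acts on CHR promoters, was at 289.6 and 230.6 CPM in DMSO and 468.4 and 660.0 CPM in HJ-23. It had an edgeR log2 fold change of 1.12 (SE 0.22 and adjusted p = 0.218) and was the 1 gene of the list that passed with DESeq2, against 2.31% of all genes.

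**Figure D5:**
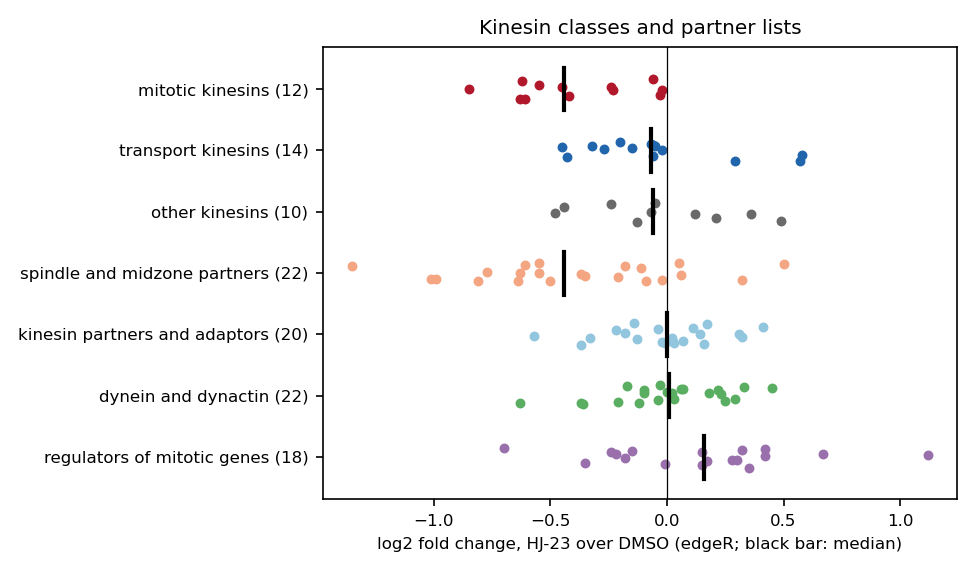
Log2 fold changes, HJ-23 over DMSO (x axis), of the genes in each kinesin class and partner list (rows, with the number of genes tested); points are genes, spread vertically for visibility, and black bars are medians. Mitotic kinesins and spindle partners are centred at -0.44, transport kinesins and their adaptors at -0.07 and 0.00.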

How the data were processed

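Whole-number counts per Ensembl gene were deposited as 1 table per library, without normalization, as the values show. FastQC, Trimmomatic, HISAT2, bedtools and RSEM are named without versions or roles, per the submitters' processing notes; the genome build, strand and counter settings were "not given in the sources used here". Of all counts of 1 to 8, 69.6% to 72.3% per library were even, so both mates of most pairs appear to be counted. Groups follow the sample titles. The whole table was fitted with edgeR 4.0.16 (TMM factors 0.983 to 1.03, filterByExpr, robust quasi-likelihood F-test, 2 residual degrees of freedom, Benjamini-Hochberg, threshold 0.05), where the SE is the log2 fold change over the square root of F. Symbols came from a gene name table, gene types, transcript GC content and length from GENCODE 29. The GC and length correction used smooth fits per library (mgcv 1.9.3) as offsets; DESeq2 1.42.0 was an alternative. The fit was tested on simulated data.

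The crossed replicate block was an alternative chosen after seeing the data. Members, role classes and lists were chosen with earlier results of these data known, and no list was tested. Full values were given for kinesins past the threshold in any fit, the 3 largest fold changes and 3 highest levels of the mitotic and transport classes, the 3 largest fold changes of the others, and KIF11, KIF20A, KIF23 and KIF5B; ANLN, CKAP5, KPNA2, SPAG5, DYNC1H1 and CDKN1A by passing with DESeq2; and KIF18A, KIF18B, KIF20B, KIF2A, KIF26B, PLK1 and MKI67, named after their values were seen.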

Additional observations from a re-analysis of the deposited data

How the results depend on the processing

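The 0 kinesins called with edgeR stayed 0 with DESeq2's size factors, no filter, a filter at a mean of 10 CPM (30 kinesins left), the GC and length correction, the replicate block (alone or with that correction) and DESeq2. Leaving out 1 library gave 0 to 1. Over all genes, 12 calls became 31 with no filter, 0 at 10 CPM (1254 at an unadjusted p below 0.05), 34 with the GC and length correction, 311 with DESeq2, and 0 to 273 with 1 library left out (273 with DMSO replicate 1 left out, and 0 with HJ-23 replicate 1 or 2 left out, where 3501 and 1377 had an unadjusted edgeR p below 0.05). With the replicate block there were 294, and 0 with block and GC correction together (1539 at an unadjusted p below 0.05). The labels give shared replicate numbers but no shared culture or day. Deviations of the replicates correlated at -0.182 between the groups, and at -0.0961 after the GC and length correction. The crossed pairing was added after seeing the first of these values. With that replicate block 966 of 14062 genes and 7 of 36 kinesins were called (2 higher, 5 lower). The pairing was picked from these same data, so no conclusion is drawn from these calls.

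The mitotic median ran from -0.78 to -0.21, the transport median from -0.15 to -0.03 and their difference from -0.67 to -0.10 with 1 library left out; in every other setting run they moved by less than the replicate SD. The log2 fold change of KIF5B ran from -0.44 to 0.06 with 1 library left out, that of KIF22 from -0.18 to 0.09, KIFC1 from -0.13 to 0.02 and KIFC2 from -0.20 to 0.01, and KIF5B was at 0.00 and 0.01 with the GC and length correction, without and with the replicate block. The other 13 kinesins given with full values kept their sign in every setting in which they were fitted. KIF7 was not fitted with the filter at a mean of 10 CPM. With 1 library in a group, it is assumed to vary like the other group. With 2 libraries per group, the replicate SD was 0.35 for the mitotic median and 0.28 for the difference between the classes. Without the GC and length correction, differences of the size seen here are close to that spread between libraries. The replicate SD of the corrected medians was not computed.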
